A study of Xenopus laevis with 5 samples.

Results

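The genes foxn4.S, rfx2.S, myb.S, ccno.L, ccdc78.S, plk4.L and ruvbl2.L act in the making of multiciliated cells, the skin cells of the frog larva that carry tufts of beating cilia. They were chosen by the gene symbols of the array's annotation, which gave each gene 1 probe set, so that 7 of the 15491 probe sets left after removal of controls were members. The letters .L and .S mark the 2 subgenomes of Xenopus laevis, an allotetraploid frog in which many genes exist as a pair of homeologs.

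The samples were explants of presumptive ectoderm (animal caps) from embryos that had received synthetic mRNA at the 2-cell stage, either ICD (3 arrays, 1 per sample) or HMM (2 arrays). All embryos grew in 0.1X MMR, a frog saline. Every explant was cut at stage 9 to 10, kept on a fibronectin-coated coverslip in Danilchik's medium with 0.1% BSA, and harvested when whole embryos had reached stage 22. Neither abbreviation is spelled out in the sample descriptions. The series title names Notch signalling, and in this field ICD is commonly the Notch intracellular domain, which switches on the pathway's targets, and HMM a shortened human Mastermind that blocks them. This reading is background and entered no test. Injected mRNA is inherited by every cell descended from the injected ones, so the treatment was not restricted to 1 cell type, and uninjected explants were not analysed here. Higher and lower are therefore statements about ICD relative to HMM. The descriptions call the samples replicates without saying that they came from separate clutches, so the p-values measure the spread between these samples, which may be technical.

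In the embryonic epidermis, Notch signalling between neighbouring cells limits how many precursors of the inner layer become multiciliated. Precursors that escape it switch on the geminin-like coactivators multicilin and gemc1, which work with E2f and Dp proteins. Their programme contains transcription factors of the fork head, RFX and Myb families, and proteins that let a cell build many centrioles outside the normal cell cycle. Those centrioles dock at the cell surface as basal bodies, and each grows a cilium.

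The values are MAS5 signals, which are relative brightness in arbitrary units, scaled to the same mean on every array. The median signal lay between 62.1 and 72.7 on the ICD arrays and at 70.5 and 70.0 on the HMM arrays. The 27 probe sets for poly-A spike-in RNA had a median of only 2.4 on ICD replicate 3, where the other 4 arrays had medians of 301.4 to 346.6. Epidermal keratin probe sets were bright in both groups, with sums of 58253 to 75020 over 12 probe sets in ICD and of 61613 and 53096 in HMM. No marker probe set of any cell type was listed at 0 on any array, which does not show that every type was present. Some were near 0, such as foxi1.L at 2.4 on ICD replicate 2 and dnah9.S at 0.7 on HMM replicate 1. Because RNA came from whole explants, fewer cells of a type and less RNA per cell cannot be told apart for any result that follows.

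All 7 genes read lower on every ICD array than on either HMM array. This held for 16.5% of all 15491 probe sets. The signals in ICD averaged 5.44% (ccdc78.S) to 30.4% (ruvbl2.L) of those in HMM. Of the 6 genes bright enough to be tested, 5 fell in the limma test across all probe sets (adjusted p below 0.05) and 0 rose, where 3.50% of the 9981 tested probe sets were called lower and 1.55% higher. The exception was the cyclin gene ccno.L, whose ICD arrays differed most among themselves. The genes were picked with earlier results of these data known, so the counts describe them and are not independent evidence.

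**Figure D1:**
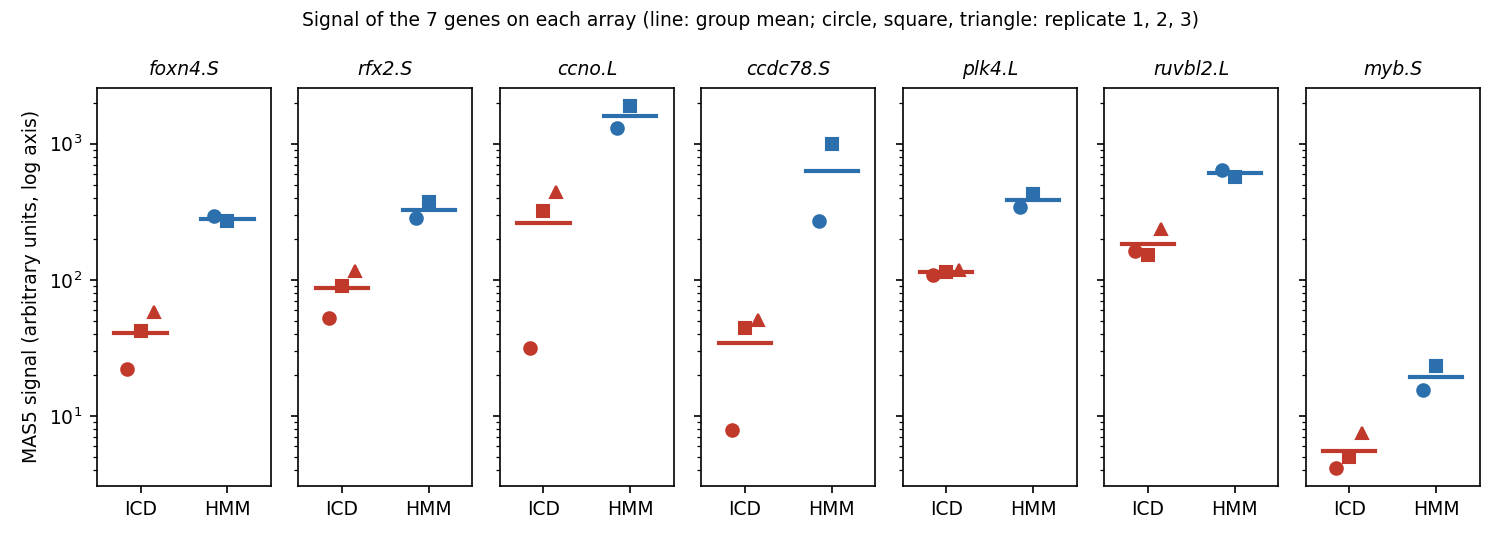
MAS5 signal (arbitrary units, log axis) of the 7 genes on each of the 3 ICD arrays (red) and 2 HMM arrays (blue). Circles, squares and triangles are replicates 1, 2 and 3, and lines are group means. In every panel the highest ICD point lies below the lowest HMM point, and in ccno.L and ccdc78.S ICD replicate 1 lies far below the other ICD points.

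Among the transcription factors, foxn4.S encodes a fork head protein that works beside Foxj1 in frog multiciliated cells. Its probe set read 22.2, 42.5 and 58.2 in ICD replicates 1 to 3, against 293.0 and 270.3 in HMM replicates 1 and 2. The HMM arrays lay close together, and the lower of them was 4.64 times the highest ICD array. The group mean was 41.0 ± 18.0 for ICD and 281.7 ± 16.1 for HMM (SD, n = 3 and n = 2). Its difference, on the scale log2(signal + 5.9), was -2.70 ± 0.38 (SE), with a 95% confidence interval from -3.60 to -1.79 (limma adjusted p = 0.0190). Only 1 of the ICD arrays exceeded the value of 42.6 used to filter dim probe sets, so the gene entered the test through its HMM signal.

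The gene rfx2.S encodes a factor of the RFX family, which binds promoters of ciliary genes. It read 52.8, 90.0 and 116.9 in ICD replicates 1 to 3, against 286.4 and 369.6 in HMM replicates 1 and 2. The groups were separated by a gap of 2.45 times, narrower than for foxn4.S. With a mean of 86.6 ± 32.2 for ICD and 328.0 ± 58.8 for HMM (SD, n = 3 and n = 2), it fell by 1.91 ± 0.36 (SE) on the log2 scale (interval from -2.76 to -1.05, limma adjusted p = 0.0327).

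The proto-oncogene myb, known from mouse and zebrafish as an early factor of multiciliated cells, was represented by myb.S. Its readings were 4.2, 5.0 and 7.5 on the ICD arrays, against 15.5 and 23.5 on the HMM arrays. The order of the groups was that of the other genes, but all 5 values lay below the filter value, and the HMM mean was brighter than only 23.9% of probe sets. MAS5 subtracts mismatch signal, so values this low carry a large relative error. In a fit without the filter the difference was -1.14 ± 0.30 (SE), with an interval from -1.83 to -0.45, and did not pass (limma adjusted p = 0.108). In that fit 2.15% of probe sets were called lower.

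Among the centriole genes, ccdc78.S and ccno.L had the largest differences of the 6 tested genes and the largest errors, and plk4.L the smallest of both. The coiled-coil protein encoded by ccdc78 is part of the deuterosome, the platform on which multiciliated cells raise new centrioles. The signals of ccdc78.S were 7.9, 44.1 and 50.5 in ICD replicates 1 to 3, against 269.7 and 987.3 in HMM replicates 1 and 2. The ICD arrays were near or below the filter value, and the HMM arrays differed from each other by 3.66 times, the widest HMM spread among the 7 genes. Mean signals were 34.2 ± 23.0 for ICD and 628.5 ± 507.4 for HMM (SD, n = 3 and n = 2). The gene fell by 3.95 ± 0.75 (SE) on the log2 scale (interval from -5.71 to -2.19, limma adjusted p = 0.0311), which put it at rank 22 of 9981 from the most negative difference. Its ICD signal was close to the pseudocount of 5.9 on replicate 1, so the fold is understated there.

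Cyclin O, encoded by ccno, is needed for centriole amplification, and in humans its loss leaves airway cells with few cilia. The signals of ccno.L were 31.7, 319.5 and 439.0 in ICD replicates 1 to 3, against 1303.0 and 1898.8 in HMM replicates 1 and 2. It was the brightest of the 7 genes in HMM, above 96.7% of probe sets, and its ICD arrays spanned 13.8 times while staying below both HMM arrays. Mean signals were 263.4 ± 209.4 for ICD and 1601 ± 421.3 for HMM (SD, n = 3 and n = 2). The difference of -3.17 ± 0.97 (SE) was larger than that of foxn4.S, but its interval from -5.46 to -0.87 was the widest of the 6, and it did not pass (limma adjusted p = 0.128). Without ICD replicate 1 the difference was smaller, -2.05, and passed (adjusted p = 0.00668, in a range of 0.00381 to 0.487 over all alternatives).

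The kinase encoded by plk4 starts centriole duplication in dividing cells and also acts in multiciliated cells. The signals of plk4.L were 109.0, 114.1 and 117.6 in ICD replicates 1 to 3, against 342.0 and 426.9 in HMM replicates 1 and 2. These ICD arrays were the most uniform of any of the 7 genes, the highest being 1.08 times the lowest. The group mean was 113.6 ± 4.3 for ICD and 384.5 ± 60.03 for HMM (SD, n = 3 and n = 2). It fell by 1.70 ± 0.25 (SE) on the log2 scale (interval from -2.28 to -1.12, limma adjusted p = 0.0190). All 3 ICD arrays were above the filter value, and the ICD mean was 29.5% of the HMM mean. The filter value is a percentile of all signals, so passing it does not by itself show detection.

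The AAA+ ATPase encoded by ruvbl2 forms a ring with its relative Ruvbl1 that serves in chromatin remodelling and in assembling large protein complexes, axonemal dyneins among them. The signals of ruvbl2.L were 163.2, 151.6 and 237.0 in ICD replicates 1 to 3, against 643.8 and 567.8 in HMM replicates 1 and 2. Among the 7 genes it alone did not have its lowest signal on ICD replicate 1. Averaged by group it gave 183.9 ± 46.3 for ICD and 605.8 ± 53.7 for HMM (SD, n = 3 and n = 2). It fell by 1.71 ± 0.28 (SE) on the log2 scale (interval from -2.38 to -1.05, limma adjusted p = 0.0234).

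Further probe sets were annotated for ruvbl2 alone among the 7 genes. The homeolog ruvbl2.S read 549.7, 651.6 and 691.6 in ICD replicates 1 to 3, against 1181.3 and 1519.2 in HMM replicates 1 and 2, and fell by 1.09 ± 0.23 (SE; limma adjusted p = 0.0460). Its groups did not overlap, and its ICD mean was 46.7% of its HMM mean. That call lay at the threshold, and adjusted p ran from 0.00550 to 0.324 over the alternatives. A probe set assigned to both homeologs read 210.1, 257.3 and 439.0 in ICD and 699.2 and 1061.4 in HMM, which is a difference of -1.56 ± 0.37 (SE) and missed the threshold (limma adjusted p = 0.0627). The intervals of ruvbl2.L (from -2.38 to -1.05) and ruvbl2.S (from -1.64 to -0.54) overlapped, and the difference between the homeologs was not tested. Probes for near-identical homeologs can bind both transcripts, so the values of the pair may be partly shared.

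**Figure D2:**
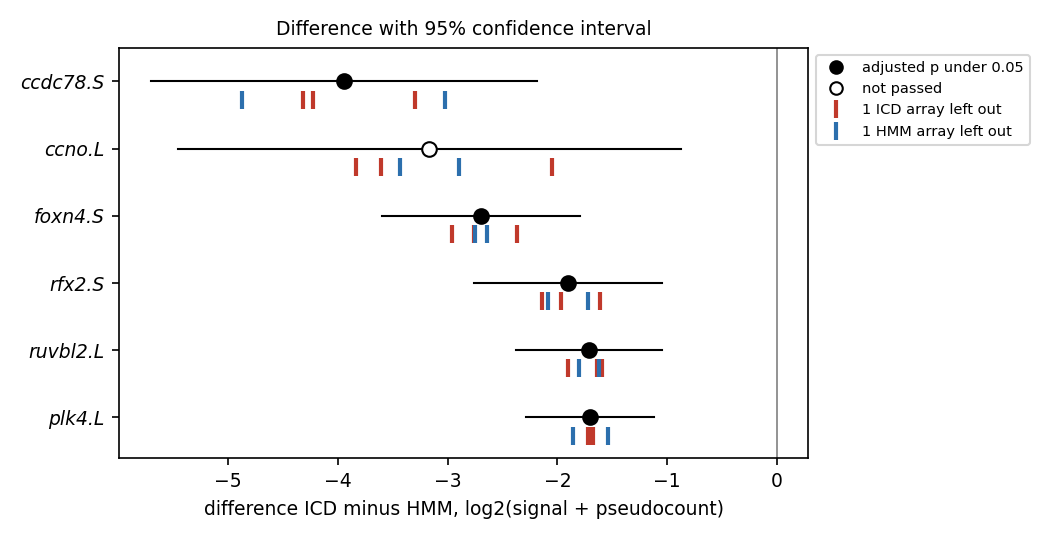
Difference between ICD and HMM (log2 of signal plus pseudocount) for the 6 tested genes, with its 95% confidence interval as a line. Filled points passed an adjusted p of 0.05, and ticks give the difference with 1 ICD array (red) or 1 HMM array (blue) left out. Each interval lies below 0, and the ticks of ccno.L and ccdc78.S spread the most.

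By the size of the difference the order was ccdc78.S, ccno.L, foxn4.S, rfx2.S, ruvbl2.L and plk4.L. The intervals were wide against the steps in this order: the interval of ccdc78.S contained the differences of ccno.L and foxn4.S, and that of rfx2.S contained those of foxn4.S, ruvbl2.L and plk4.L. Differences between genes were not tested. From 0.210% of tested probe sets for ccdc78.S to 3.68% for plk4.L had a more negative difference.

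The calls rested on few arrays. Leaving out ICD replicate 2 left 0 of the 6 genes called, and so did leaving out HMM replicate 2. In those limma fits 6 and 5 of the 6 genes had an unadjusted p under 0.05, as did 1588 and 1091 of all probe sets, of which 22 and 11 were called. Without ICD replicate 3, the array with the low spike-in controls, 2 genes were called, foxn4.S and ruvbl2.L. Without HMM replicate 1, 2 were called, ccdc78.S and plk4.L. All 6 were called without ICD replicate 1. Such fits have fewer residual degrees of freedom than the main fit, and the same number whichever array is left out. Leaving out an HMM array leaves 1, so the spread in that fit comes from the ICD arrays alone. Over all fits with 1 array left out, differences ranged from -2.96 to -2.37 for foxn4.S, from -4.87 to -3.02 for ccdc78.S and from -1.86 to -1.54 for plk4.L.

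Within the groups, most of the 7 genes ranked the arrays alike. ICD replicate 1 was the lowest ICD array for 6 of the 7, and HMM replicate 2 exceeded HMM replicate 1 for 5. Among the 6 tested genes, which leave out myb.S, the counts were 5 and 4. The shares were 41.8% and 45.8% among all tested probe sets, and 69.3% and 90.5% among the 349 called lower. The full order from ICD replicate 1 through ICD replicates 2 and 3 to HMM replicates 1 and 2 was found in rfx2.S, myb.S, ccno.L, ccdc78.S and plk4.L. Of the 6 tested genes 4 had this order, and of all tested probe sets 4.19%. The order includes the gap between the groups. Among the 1701 whose ICD arrays all read below both HMM arrays 24.6% had it, and among the 349 called lower 46.1%. The summed signal of 21 probe sets for axoneme markers, the structural genes of motile cilia, had the same order, at 3969, 6868 and 8832 in ICD and 21286 and 32147 in HMM. A large part of the ICD sums was the tubulin gene tubb4b.L, at 2623.9, 3422.2 and 4379.9. It read 7155.5 and 6211.8 in HMM, the reverse order, and did not pass (limma adjusted p = 0.0664). Its homeolog tubb4b.S added 423.9, 1191.3 and 1712.1 in ICD and 3783.0 and 5016.8 in HMM, and did not pass either (limma adjusted p = 0.0724). The 19 tested probe sets, each taken relative to its own log2 mean, averaged -2.09, -0.82 and -0.55 in ICD and 1.26 and 2.20 in HMM. Of the 19 axoneme probe sets tested, 16 fell, 0 rose and 3 did not pass, with a median difference of -2.79, where the median over all tested probe sets was 0.08. The genes cfap20.L, rsph9.L and dnal4.S each had more than 1 of these probe sets, all called lower, so the 16 are not 16 genes. Of the 16, tekt2.L and spef1.S were below the filter value on every ICD array and entered the test through HMM. The count of axoneme falls was 0 with ICD replicate 2 or HMM replicate 2 left out, and 6 with ICD replicate 3 left out. The part that differing numbers of multiciliated cells between arrays have in these values was not tested.

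**Figure D3:**
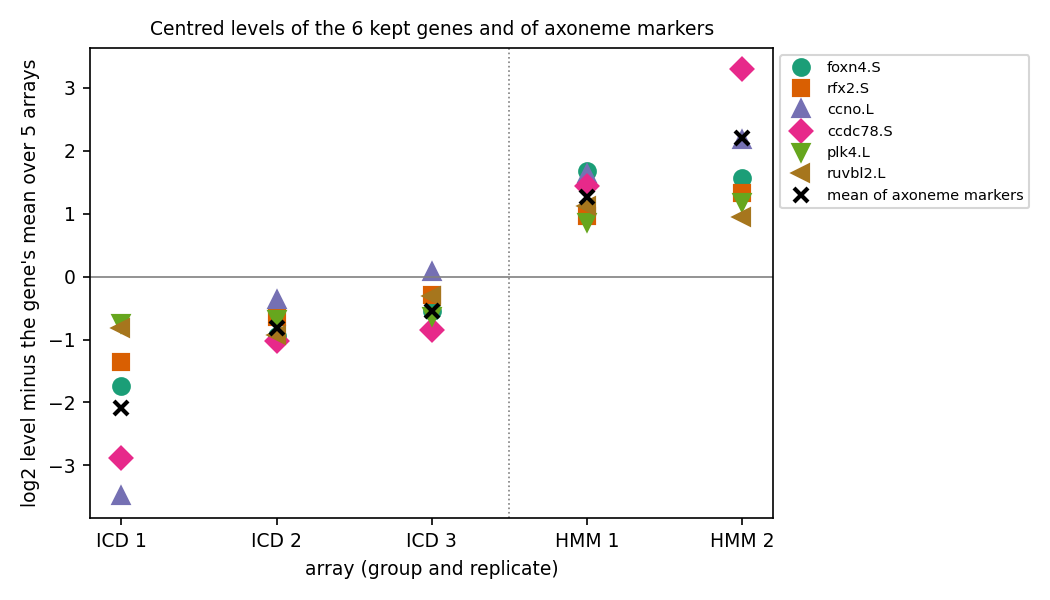
Log2 level of the 6 tested genes on each array, minus the mean of that gene over the 5 arrays, with the mean of 19 axoneme marker probe sets as crosses. On ICD replicate 1 the genes spread from -3.49 (ccno.L) to -0.74 (plk4.L), while on ICD replicate 2 they lie between -1.02 (ccdc78.S) and -0.38 (ccno.L).

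The spread within groups differed between the genes. On ICD replicate 1, ccno.L was at -3.49 and ccdc78.S at -2.88 relative to their own means on the log2 scale, and the axoneme markers averaged -2.09. On the same array plk4.L and ruvbl2.L were at -0.74 and -0.82. HMM replicate 2 stood above HMM replicate 1 for ccdc78.S (3.29 against 1.44) and for the axoneme markers (2.20 against 1.26). For foxn4.S the 2 HMM arrays were at 1.67 and 1.56, with replicate 1 the higher.

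For each tested gene, the probe sets with the most similar levels over the 5 arrays were found by the root mean square difference of the centred log2 profiles. The nearest to plk4.L were enkd1.L (0.046) and tbc1d24.2.L (0.058), and to rfx2.S spice1.L (0.107) and rab25.L (0.116). The nearest to ruvbl2.L were bsg.L (0.143) and ckb.L (0.163), and to foxn4.S arl2bp.L (0.182) and wrap73.L (0.185). The profile of ccdc78.S was approached by ak7.S (0.216) and odf3.L (0.219), and that of ccno.L by tuba1cl.3.L (0.224) and XB5922676.S (0.265). With 5 arrays in 2 groups, such a likeness mostly says that the difference between the groups and the within-group order are of like size. The profile of ccno.L had the most distant neighbours of the 6. The measure is not scaled to a gene's own spread over the arrays, which was wide for ccno.L.

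Other genes of the same programme were taken from lists. Of 13 transcriptional regulators, 5 had a probe set with 1 symbol, and besides the members these were tfdp1.L, tfdp1.S and e2f4.S. The Dp partner genes tfdp1.L and tfdp1.S were at 0.27 and 0.15, short of the threshold (limma adjusted p = 0.668 and 0.853). The gene of the multicilin partner E2f4, e2f4.S, was too dim to test, at 36.6, 27.3 and 35.9 in ICD and 31.0 and 25.8 in HMM. Unlike the members, these 3 probe sets had overlapping groups.

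Among 25 further probe sets of centriole assembly genes, 19 were tested, of which 10 fell, 0 rose and 9 did not pass. Their median difference was -1.50. The deepest fall was that of poc5.L, which encodes a protein of the inner centriole and read 28.7, 65.7 and 67.2 in ICD and 397.9 and 745.6 in HMM (difference -3.28 ± 0.44, limma adjusted p = 0.0163). Also called lower were the centriolar elongation gene cep120.L (-2.63), the centriolar wall gene poc1a.L (-2.33), the centriolar satellite gene pcm1.L (-2.29) and the cartwheel-associated gene cep135.L (-2.20). The delta-tubulin gene tubd1.L (-1.98), the duplication factor gene spice1.L (-1.75) and the centrin genes cetn3.L (-1.62) and cetn3.S (-1.49) fell as well.

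The kinase gene nek2.S, which acts in centrosome separation, had a called difference of -1.50 on 1 probe set, while its other probe set, at -1.23, did not pass (limma adjusted p = 0.0964). The centrin gene cetn4.L was at -3.03 and missed the threshold (limma adjusted p = 0.0728), with ICD replicate 1 at 39.5 and ICD replicates 2 and 3 at 256.8 and 241.2. The gene cep97.L, whose product caps centrioles, differed by -1.34 and -1.04 on its 2 probe sets without passing. The gamma-tubulin gene tubg1.S differed by -0.80 and did not pass, and sass6.L, a gene of the centriole cartwheel, differed by -0.27 (limma adjusted p = 0.612). Of the 19 probe sets 3 were above 0, and none of these passed. They were cep63.L (0.70), a relative of the deuterosome gene deup1, cep192.L (0.57) and poc1b.L (0.36). For cep192.L and poc1b.L every ICD array read above both HMM arrays, but the share of all probe sets separated in this direction was not counted. Leaving out ICD replicate 2 or HMM replicate 2 left 0 of these 19 probe sets called, and leaving out ICD replicate 3 left 5.

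Of 9 further probe sets for Ruvbl proteins, their partners and dynein assembly factors, 8 were tested, of which 6 fell, 0 rose and 2 did not pass. The median was -2.04. The partner gene ruvbl1.S read 249.0, 186.6 and 250.9 in ICD and 754.4 and 810.8 in HMM, and fell by 1.76 ± 0.25 (SE; limma adjusted p = 0.0190), beside a difference of -1.71 for ruvbl2.L. The dynein assembly and transport genes cfap298.L (-2.96), dnaaf4.L (-2.69), dnaaf10.L (-2.35) and daw1.S (-2.33) fell, and the remaining call was ruvbl2.S. Of these, dnaaf4.L read 13.9, 15.2 and 25.4 in ICD, all below the filter value, so it entered the test through its HMM signal. The gene rpap3.L, whose product joins both Ruvbl proteins in the R2TP chaperone complex, was at -0.37 (limma adjusted p = 0.504). The assembly factor gene dnaaf5.L differed by -1.61 and did not pass. With ICD replicate 2 or HMM replicate 2 left out 0 of these 8 were called, and with ICD replicate 3 left out 4 were.

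Of 24 cell cycle probe sets tested, 1 fell, 0 rose and 23 did not pass. Among all tested probe sets 3.50% were called lower. Some genes, such as ccne1.L, had more than 1 of the 24 probe sets. Differences on this list ran from -3.30 to 2.00, with 8 below and 16 above 0 and a median of 0.18. With the replicate number as a block, 3 were called lower and 3 higher. The fall was that of ccna1.S, a cyclin A gene, at 28.9, 54.1 and 104.6 in ICD and 457.0 and 781.2 in HMM (difference -3.30 ± 0.50, limma adjusted p = 0.0207), a call that was lost when ICD replicate 2 or HMM replicate 2 was left out. Its homeolog ccna1.L, at -3.17, did not pass (limma adjusted p = 0.0509). As relatives of the multicilin gene, gmnn.L and gmnn.S, which encode geminin, differed by 2.00 and 1.63 without passing, and ICD replicate 1 stood above the other ICD arrays for both (gmnn.L at 943.4 against 124.1 and 168.9). The replication licensing gene cdt1.L differed by 0.92 and 0.58 on its 2 probe sets, and cdk2.S and ccna2.L by 0.87 and 0.81, and none of these passed. On the 3 probe sets of plk1.S, a mitotic relative of plk4, the differences were 0.09, 0.12 and 0.30, and none passed.

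**Figure D4:**
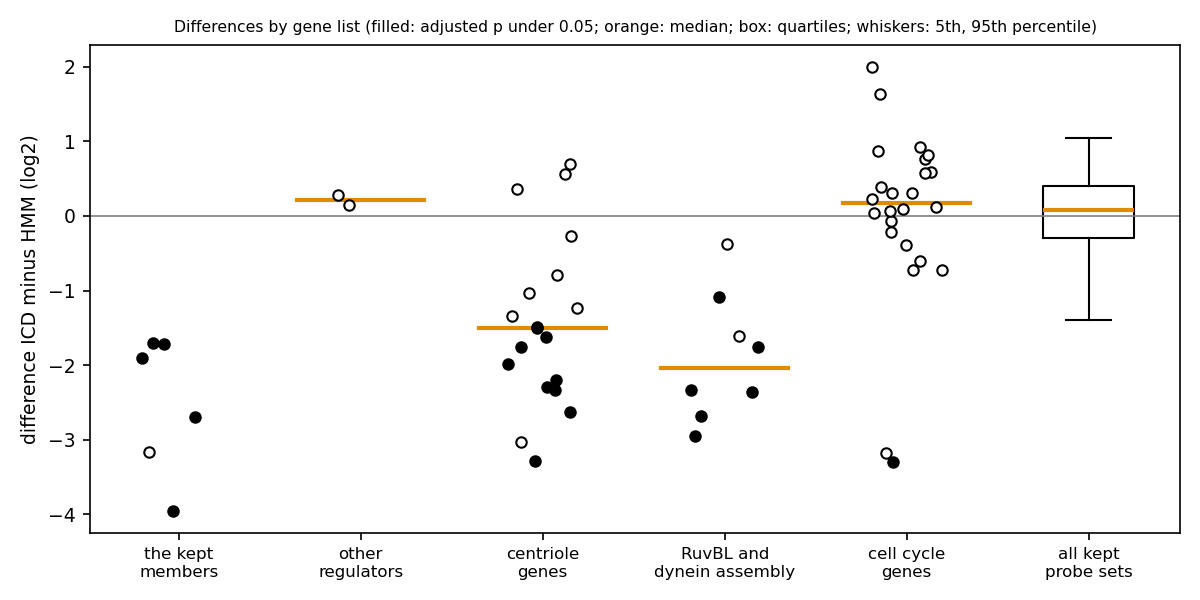
Difference between ICD and HMM (log2) of each tested probe set in the 7-gene group and in 4 gene lists, with members left out of the lists. Filled points passed an adjusted p of 0.05, orange lines are medians, and the box shows all 9981 tested probe sets (quartiles, whiskers at the 5th and 95th percentile). The centriole and Ruvbl lists have medians of -1.50 and -2.04, and the cell cycle list 0.18.

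Markers of other cell types were measured as well, and for several types most probe sets did not pass. All 10 ionocyte marker probe sets fell, with sums of 187.1 to 334.1 in ICD and of 14035 and 25828 in HMM, for cells that secrete acid and base and, like multiciliated cells, join the surface from the inner layer. Several, such as foxi1.L at 3.4, 2.4 and 17.9 in ICD, were below the filter value on every ICD array and entered the test through HMM. Of 5 goblet cell probe sets, 0 fell, 1 rose and 4 did not pass, with sums of 14586 to 18452 in ICD and of 14676 and 15010 in HMM. These sums joined opposite differences. The riser was agr2.S (1.45), and agr2.L was at 1.39, while grhl3.L (-0.82), grhl1.L (-0.56) and itln1.L (-0.33) were below 0. Of 5 tested basal epidermal probe sets 3 rose. Of 9 tested neural probe sets 1 rose, and the 15 on that list summed to 2600 to 5112 in ICD and to 1505 and 1490 in HMM. The riser was otx1.L, the brightest on the list, at 1319.1 to 2210.2 in ICD and 604.7 and 372.6 in HMM. It is counted again for cement gland below. All 9 differences were above 0, but those of sox2.L (0.42), sox3.L (0.30) and sox3.S (0.32) did not pass, and their groups overlapped. Calls among the other tested marker probe sets were 1 of 4 higher for small secretory cells, 4 of 12 for keratins, 1 of 3 for muscle and mesoderm and 3 of 5 for cement gland, a list that shares otx1 with the neural one. The small secretory riser was pnhd.L (2.60), while slc18a1.S (-0.53), htr3a.L (-0.40) and foxa1.S (-0.29) were below 0. At 38.9 and 27.5 in HMM, pnhd.L was below the filter value there and entered the test through ICD. Another probe set of pnhd.L was too dim to test. The keratin risers were krt19.L, krt19.S, krt18.1.L and krt18.1.S (1.43 to 2.22). Of the 12 keratin probe sets 6 were below 0, and their median difference was -0.002. The 3 tested muscle and mesoderm probe sets were all of the gene ckm.L, and the rest of the 11 on that list were too dim to test. Leaving out ICD replicate 2 or HMM replicate 2 left 0 markers called outside the ionocyte list, where 9 and 6 fell. Leaving out ICD replicate 3 left 1 basal, 2 keratin, 2 cement gland, 0 neural and 0 muscle probe sets called higher, and leaving out ICD replicate 1 gave 4 neural ones. With HMM replicate 1 left out, 2 keratin probe sets were called higher. The part of such tissue composition in the differences of the 7 genes was not tested.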

How the data were processed

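The deposited values are MAS5 signal intensities on a linear scale, with 1 value for each probe set on each array. MAS5 is named in the submitters' processing notes, with its version and settings not given in the sources used here. Every array had a 2% trimmed mean of about 200.03, so no further scaling was applied, and any difference in total RNA between samples is removed. Of 15611 probe sets, 120 controls were left out. Platform annotation gave 1 symbol to 9304 probe sets, and 2 symbols were updated through a RefSeq gene table (Xenopus_laevis_v10.1). No sequences or coordinates were used.

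Probe sets above 42.6 (40th percentile) on at least 2 arrays were kept (9981). Values were tested as log2(signal + 5.9), the pseudocount being the 10th percentile, so differences of dim genes are understated. Linear models were fitted in limma 3.58.1 under R 4.3.3 (lmFit, then eBayes with trend) to all 5 arrays with the group as the only term. Tests were two-sided, and p-values were adjusted by Benjamini-Hochberg across the 9981 probe sets. This model was run on simulated data holding known changes and independent noise. That noise had no effects shared within an array, so the run does not assess how stable the calls are. Figures were drawn with matplotlib 3.10.9. The number of arrays limits the precision.

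The genes, lists and alternatives were chosen with earlier results of these data known. Named list genes were all those called and up to 6 others with the largest differences. The genes e2f4.S, sass6.L and plk1.S were named for their roles, after their values had been seen. Also after that, cep192.L and poc1b.L were named to complete the centriole probe sets above 0. A planned promoter search was not run, as no sequences were used here. The alternatives were quantile normalization, median centring, other pseudocounts and filters, eBayes without trend or robust, each array left out, the replicate number as a block, and other thresholds.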

Additional observations from a re-analysis of the deposited data

How the results depend on the processing

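The count of called members was 5, and it ran from 0 to 6 with each array left out. The count over the pathway lists was 17, and ran from 0 to 18, and that over all probe sets was 504, and ran from 11 to 843. At an adjusted p under 0.01, 0 members and 19 probe sets were called, and 857 probe sets under 0.10. With the replicate number as a block, 6 members, 28 pathway probe sets (25 lower, 3 higher) and 1714 probe sets were called. ICD replicate 3 has no HMM partner and drops out of that contrast. Deviations from the group means correlated at 0.65 between the replicates numbered 1 and at 0.51 between those numbered 2, but the 2 HMM deviations mirror each other, and 2 pairs do not establish a pairing. In that fit ccno.L had a difference of -3.84 (limma adjusted p = 0.00381). Quantile normalization, median centring, both pseudocounts, both filters and both eBayes settings left the same 5 genes called and ccno.L not called. The call of ruvbl2.S was lost under median centring, without a pseudocount, without a filter and without the variance trend (adjusted p = 0.0504, 0.05004, 0.0585 and 0.0690). That call was also lost with each single array left out (adjusted p from 0.0598 to 0.324). No difference of the 6 tested members or of the other ruvbl2 probe sets changed sign under these alternatives, and myb.S was fitted only without the filter. The cause of these shifts was not tested. The dim signal of myb.S, and of ccdc78.S in ICD, limits what can be said of their folds.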
